A study of Mus musculus with 4 samples.

Results

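Lysosome genes with differential m6A peaks were examined in MIN6, an insulin-secreting mouse insulinoma line (strain C57BL/6 per the labels) that stands in for pancreatic beta cells. The genes are those that the authors' deposited KEGG table counts in its row for the lysosome pathway, taken once per Entrez gene and without solute carriers (symbols that start with Slc). That row held 47 input gene IDs in the authors' deposited table. Leaving out 1 solute carrier (Slc17a5) left 46 IDs, which stand for 45 genes, against 2074 genes in any row of the table and 9225 gene IDs in the deposited table of peak-related genes. Cells had received a control vector or a GR expression vector (10 µg per dish, RNA taken at 24 hours), and the abbreviation GR is taken to mean the glucocorticoid receptor. The 4 libraries were 1 input and 1 anti-m6A immunoprecipitate for either vector, all from a single line transfected transiently. The labels do not name the promoter of the GR vector or the share of cells that took it up.

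The 45 genes were chosen by their presence among the peak-related genes of the GR against control comparison, so that they are listed is not a finding. The files used give no value per library, no fold change and no direction for any of them. None of the 45 was among the 22 genes of the authors' deposited autophagy table, the file here with fold changes. What follows is therefore which lysosome genes were listed, how often, and which of their partners were not. Sequencing depth is unknown, and no listing has a replicate check.

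The lysosome is an acidic organelle that breaks down proteins, sugar chains, lipids and nucleic acids delivered by endocytosis and autophagy. Most of its soluble enzymes are tagged with mannose 6-phosphate in the Golgi, bound there by receptors, packed into clathrin-coated carriers with adaptor proteins, and released in the acidic endosome. A proton pump, the V-type ATPase, keeps the lumen acidic. In beta cells, lysosomes also receive unwanted insulin granules. N6-methyladenosine (m6A) is a base modification of RNA that is read by proteins acting on the stability and translation of the transcript.

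By role, the 45 genes were 10 glycosidases, 5 proteases, 6 other hydrolases, 4 activators or modifiers of the enzymes, 5 membrane proteins, 3 proton pump genes and 12 adaptor or sorting genes. The gene table lists a gene ID, a symbol and the names of the protein's domains on each line, and an ID can occur on several lines. The meaning of a line is not given in the sources used here, and all lines of a given lysosome gene were identical, so their number is given as a count of entries and not as a size of change. For 42 of the 45 genes the gene's own ID was in the gene table, on 71 lines in all.

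The glycosidases, which cut sugar chains, had the largest number of listed genes among the hydrolases. Glb1, the beta-galactosidase that acts on gangliosides and keratan sulfate, was on 5 lines. Naglu, which removes N-acetylglucosamine from heparan sulfate, was on 3 lines. The sialidase gene Neu1 was on 2 lines. Gaa (acid alpha-glucosidase, for glycogen), Gusb (beta-glucuronidase), Idua (alpha-L-iduronidase), Fuca1 (alpha-fucosidase) and Man2b1 (alpha-mannosidase) were on 1 line each. The 10 glycosidases thus spread from 1 to 5 lines, and 6 of them had a single line.

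The listed proteases were the cysteine cathepsin genes Ctsb, Ctsh, Ctsl and Ctsz and the asparaginyl endopeptidase gene Lgmn. Ctsb was on 2 lines and the other 4 were on 1 line each, the narrowest spread of the enzyme groups. All 5 encode cysteine proteases. Ctsd, the main aspartic protease of the lysosome, and the serine proteases Ctsa and Tpp1 were not listed.

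Among the other hydrolases, Dnase2a, which degrades DNA at acid pH, shared the highest number of lines, 5, with Glb1. Sgsh, a sulfatase that acts on heparan sulfate, was on 3 lines. Smpd1 (acid sphingomyelinase) and Ppt1 (palmitoyl-protein thioesterase) were on 2 lines, and the acid phosphatase gene Acp2 was on 1. The remaining gene of this group, Ppt2, was not listed under its own ID. Of the activators and modifiers, Hgsnat, which acetylates heparan sulfate from the membrane, was on 3 lines. Psap, the precursor of the saposins that help sphingolipid hydrolases, and the cholesterol carrier gene Npc2 were on 1 line each.

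Of the 5 genes placed in the membrane protein role, 4 had 1 line each, and Npc1 had none under its own ID. The 4 were Scarb2, a receptor of the CD36 family, the peptide transporter gene Abcb9, and the sialomucin genes Cd164 and Cd68. Of the proton pump genes, Tcirg1, a form of the large subunit of the membrane sector, was on 2 lines, and Atp6v0c, the proteolipid of the rotor, and Atp6ap1, an accessory subunit, were on 1 line each. In the sorting group Cltc, the clathrin heavy chain gene, was on 3 lines. M6pr (the cation-dependent mannose 6-phosphate receptor), Gnptg (a subunit of the enzyme that makes the tag), Clta (a clathrin light chain), Gga2 (an adaptor) and Ap3m1 (a subunit of adaptor complex AP-3) were on 2 lines each. Cltb, Gga3, Ap1m1, Ap1s2 and Ap3m2 were on 1 line each.

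**Figure D1:**
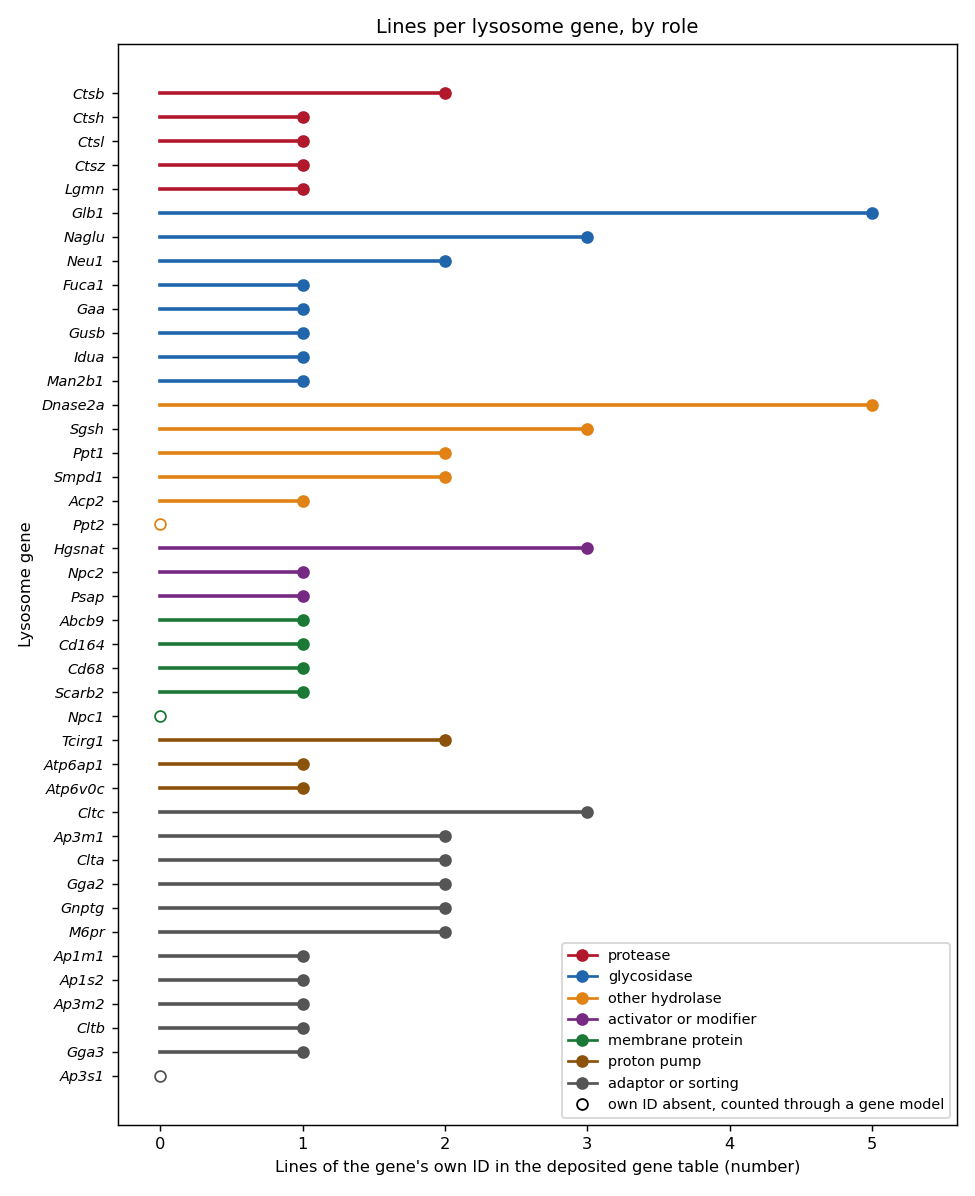
Number of lines in the deposited gene table (x axis) for the lysosome genes named in the text (y axis), coloured by role. Filled points are genes listed under their own ID, and the 3 open points at 0 are genes that the pathway row counts through another gene ID. Glb1 and Dnase2a reach 5 lines, while the genes placed in the membrane protein role do not pass 1. Hgsnat (3 lines), M6pr and Tcirg1 (2 each), which Gene Ontology also places in the vacuolar membrane, are grouped under other roles.

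The number of lines of lysosome genes resembled that of listed genes in general. Of the 42 genes with their own ID, 24 were on 1 line, 11 on 2, 5 on 3 and 2 on 5. Genes with 2 or more lines made up 42.9% of them (18 of 42), and the background among all 5526 listed protein-coding genes was 44.5%. For 3 or more lines the values were 16.7% (7 of 42) and 19.4%. The median was 1 in both, and the mean was 1.69 lines for the lysosome genes and 1.85 for all listed protein-coding genes, whose highest count was 39. Neither share was far from its background, and nothing is read from them about the lysosome genes.

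**Figure D2:**
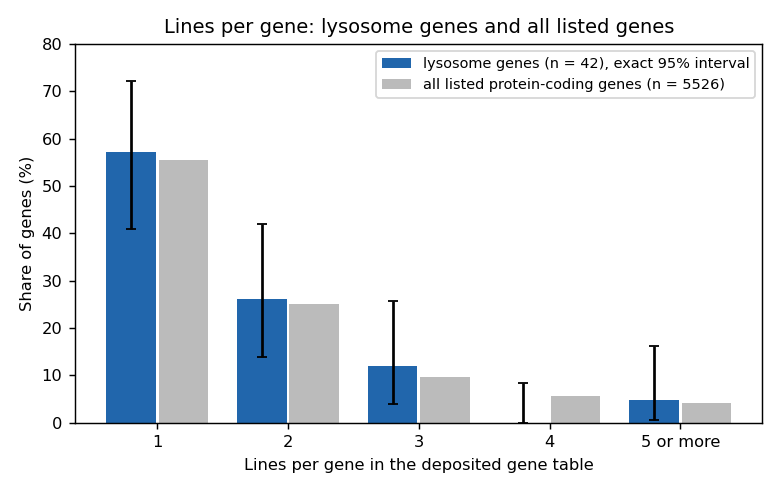
Share of genes (y axis, %) by number of lines in the deposited gene table (x axis), for the 42 lysosome genes listed under their own ID (blue, bars with exact 95% intervals for counting error only) and all 5526 listed protein-coding genes (grey). At 1 line the shares are 57.1% and 55.5%, at 2 lines 26.2% and 25.1%.

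Gene length, taken as the span on the genome with introns, did not order the counts. Transcript length was not examined. Over the 42 genes, Spearman's rho between lines and gene length was -0.03, a value across genes, which are not replicates. The pair with 5 lines were among the shortest and the longest: Dnase2a spans 2949 bases (chromosome 8, 84908755 to 84911703) and Glb1 spans 73302 bases (chromosome 9, 114401078 to 114474379), by RefSeq on GRCm38.p6. Cd68 was the shortest of the 42, at 1958 bases, with 1 line. The median length was 18025 bases, beside 16452 for all listed protein-coding genes.

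In 3 cases the pathway row counted a lysosome gene without the gene's own ID being in the gene table. Npc1, the membrane partner of Npc2 in cholesterol export, was counted through the gene model Gm15956, Ppt2 through Gm20460, and the AP-3 subunit gene Ap3s1 through Gm48176. RefSeq places Gm48176, classed as a pseudogene, on chromosome 13 (57276677 to 57277348). Atp6v0c was counted under its own ID and again through its pseudogene Atp6v0c-ps1 on chromosome 7. Each of the 4 models was on 1 line. Genes reached only through unnamed models or pseudogenes were 6.67% of the lysosome genes (3 of 45) and 11.5% of all genes in the KEGG table (239 of 2071 with a RefSeq symbol). A statement that Npc1, Ppt2 or Ap3s1 transcripts carried a differential peak would rest on these models alone.

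Repeated IDs were few in this row. It had 1.02 input IDs per Entrez gene, solute carrier included, against a median of 1.11 over the 176 rows with 20 or more IDs and a highest value of 2.33. The row stood at rank 93 of 290 by p-value, and the authors' deposited table gives it an adjusted p of 0.000181. A value below 0.05 is given there, in the authors' deposited table, for 66.9% of the 290 rows. The row chose the genes, so its p is given as a description.

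To show which partners were not listed, a list of 125 lysosome genes was written by role from textbook knowledge of the pathway, without solute carriers. It holds all 45 genes and was set against the deposited gene table. Under their own ID, 43 of the 125 were found there (34.4%, exact 95% interval 26.1% to 43.4%, counting error only), and the background over 21900 protein-coding genes was 25.2%. Of these 43, 42 are genes of the pathway row, which were taken because they are listed, and the other is Mfsd8. The share and the shares by role that follow therefore describe the choice of genes, and nothing is read from their distance to the background. Of the 22 genes marked in that list as restricted to other tissues, such as placental and immune cathepsins, 1 (Cd68) was listed, against 42 of the other 103 (40.8%, 31.2% to 50.9%). The marks were set by hand with earlier results of these data known. Ap3b2 was marked and Ap3m2 was not, and Atp6v0a4 and Atp6v0d2 were marked and Tcirg1 was not. Nothing is read from this contrast. The RNA level of the genes in the input is not given in the files used, and its part in these shares was not tested. Absence from the gene table does not show that a gene lacked a differential peak.

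By role the shares ran from 20% to 66.7%. Glycosidases had 10 of 16 genes listed (62.5%, 35.4% to 84.8%). Among the 6 that were not listed were Gla (alpha-galactosidase), Galc (galactosylceramidase), Manba (beta-mannosidase) and the hyaluronidase gene Hyal1. Activators and modifiers had 4 of 6 (66.7%, 22.3% to 95.7%), with Gm2a and Sumf1 absent. Other hydrolases had 5 of 18 (27.8%, 9.69% to 53.5%). Of the 7 sulfatases among them only Sgsh was listed, and Arsa, Arsb and Ids were among those that were not. The lipases Lipa and Pla2g15 and the ceramidase gene Asah1 were not listed either. Proteases had 5 of 25 (20%, 6.83% to 40.7%), which became 5 of 11 (45.5%, 16.7% to 76.6%) without the tissue-restricted genes. The intervals of the roles overlap, and differences between roles were not tested.

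Membrane proteins were listed at 26.3% (5 of 19, 9.15% to 51.2%). The fifth gene was Mfsd8, a lysosomal transporter-like protein on 1 line that the pathway row does not count. The most abundant proteins of the lysosomal membrane, Lamp1 and Lamp2, were not listed, nor were Cd63, the cystine transporter gene Ctns, the calcium channel gene Mcoln1, Cln3 or Laptm4a. Of the 4 LAMP family genes looked up (Lamp1, Lamp2, Lamp3 and Cd68), 1 was listed, Cd68. The proton pump had 3 of 10 (30%, 6.67% to 65.2%), without Atp6v0a1, Atp6v0a2, Atp6v0b, Atp6v0d1 and Atp6v1h. Atp6v1h belongs to the cytosolic V1 sector of the pump but was counted in this role. Of 12 other V1 genes 4 were listed, Atp6v1a, Atp6v1b2, Atp6v1d and Atp6v1f, each on 1 line. Atp6v1g1, also of these 12, was in the KEGG table only through the gene model Gm17812.

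Adaptor and sorting genes were listed at 35.5% (11 of 31, 19.2% to 54.6%). All 3 clathrin chain genes were listed, and of the GGA adaptors Gga2 and Gga3 were and Gga1 was not. The listed chains of the adaptor complexes were medium and small ones (Ap1m1 and Ap1s2 for AP-1, Ap3m1 and Ap3m2 for AP-3), and no large chain of either complex was listed (Ap1b1, Ap1g1, Ap1g2, Ap3b1, Ap3b2, Ap3d1). Beside the 25.2% of all protein-coding genes, AP-1 had 2 of 8 genes (25.0%), AP-3 had 2 of 7 (28.6%) and AP-4 had 0 of 4. Of the genes of mannose 6-phosphate tagging and its receptors, Gnptg and M6pr were listed on 2 lines each. Gnptab, which encodes the catalytic subunits of the enzyme that Gnptg belongs to, was not, nor were Nagpa and the large receptor gene Igf2r. Sort1, an alternative sorting receptor, was absent too. These smaller groups were drawn up after the lines were known, and nothing is read from their counts or from which chains were listed.

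**Figure D3:**
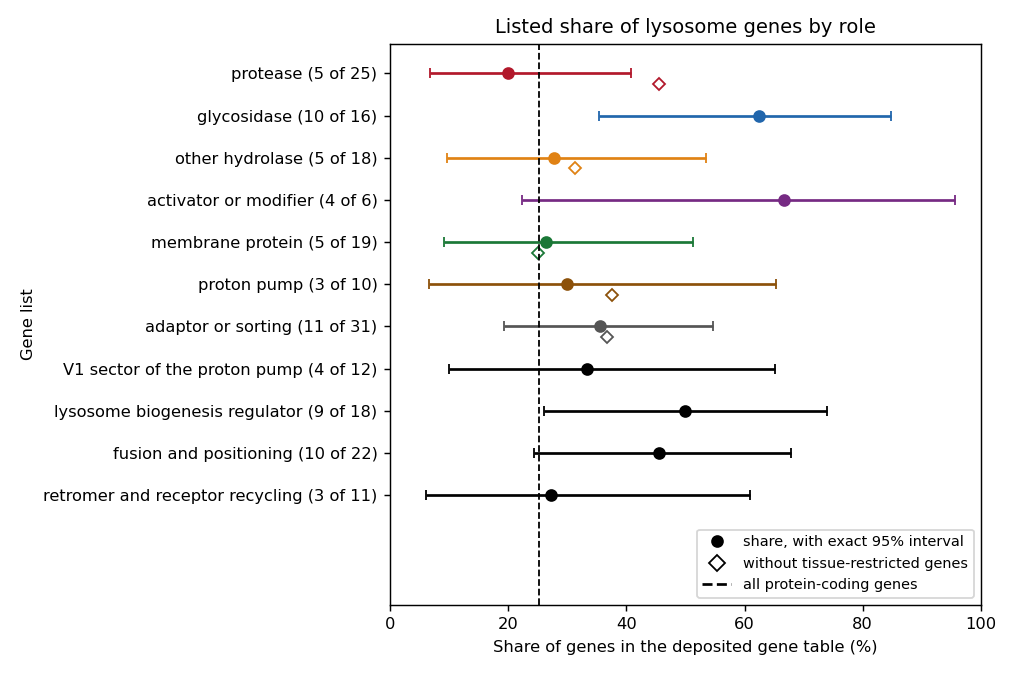
Share of genes found in the deposited gene table (x axis, %) for each role of the fixed lysosome list and 4 related lists (y axis, with listed and total genes). Points are shares with exact 95% intervals for counting error only, diamonds leave out tissue-restricted genes, and the dashed line is the 25.2% of all protein-coding genes. Glycosidases stand at 62.5%, while proteases move from 20% to 45.5% when tissue-restricted genes are left out.

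Small groups of genes that act together or share a disease were drawn up after the lines were known, so they show where the listed genes lie and give no result about a pathway. Beside the 25.2% of all protein-coding genes, 5 of 8 genes of heparan sulfate breakdown, which needs a fixed order of enzymes, were listed (62.5%, 24.5% to 91.5%). Naglu, Sgsh and Hgsnat were on 3 lines each, and Idua and Gusb on 1 line each. The sulfatase gene Ids was among those not listed. Of the complex of beta-galactosidase, sialidase and protective protein, Glb1 and Neu1 were listed and Ctsa was not. Of the 3 genes of Niemann-Pick disease, Smpd1 and Npc2 were listed, and Npc1 was counted only through the model named above. Of 9 genes of the neuronal ceroid lipofuscinoses, a group of childhood storage diseases, 4 were listed (44.4%, 13.7% to 78.8%), among them Ppt1 on 2 lines and Mfsd8 on 1. Tpp1, Cln3 and Ctsd were among those not listed.

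Other rows of the KEGG table held the same genes in parts, since they come from the same gene table. In glycosaminoglycan degradation, 7 of the 9 distinct genes were lysosome genes, among them Idua, Naglu and Sgsh, and the other 2 were the hyaluronidase genes Hyal2 and Hyal3. For that row the authors' deposited table gives 9 input IDs against 21 in the background, p = 0.0359 and adjusted p = 0.0529. In other glycan degradation, 5 of 10 genes were lysosome genes, among them Fuca1 and Man2b1, and the authors' deposited table gives adjusted p = 0.0137. The 4 cathepsins were among 60 genes of apoptosis, and Ctsb, Ctsl and Lgmn among 27 of antigen processing and presentation. The clathrin genes with Tcirg1 and Atp6v0c were 5 of 26 genes of the synaptic vesicle cycle. Tcirg1 and Atp6v0c were in the most other rows, 7 each, while 17 of the 45 genes, among them Dnase2a, Psap, Gga2 and Gnptg, were in no other row.

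**Figure D4:**
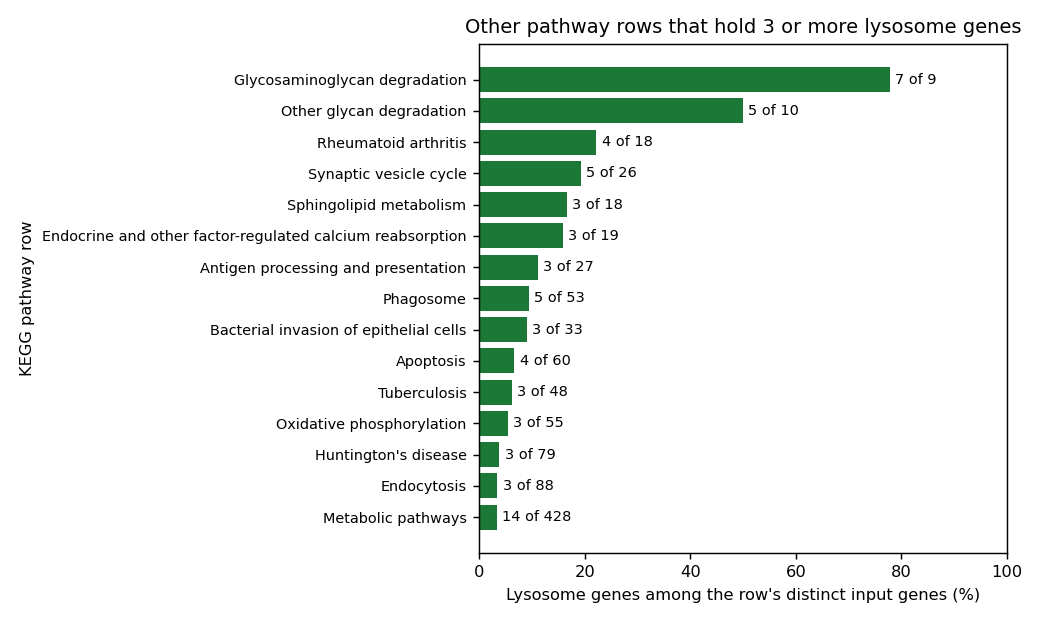
Share of distinct input genes that are lysosome genes (x axis, %) in each other KEGG row that holds 3 or more of them (y axis), with the counts beside the bars. Glycosaminoglycan degradation is at 7 of 9 genes and other glycan degradation at 5 of 10, while metabolic pathways hold 14 lysosome genes among 428.

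The Gene Ontology (GO) table placed 30 of the 42 genes with their own ID in its term lysosome. The other 12 were mainly sorting genes (Ap1m1, Ap1s2, Ap3m1, Ap3m2, Clta, Cltb, Gga2, Gga3 and Gnptg), with Naglu, Atp6ap1 and Tcirg1. Those 30 genes were 22.1% of the 136 genes with a peak in that term, so most of the term lay outside the pathway row. By molecular function, 10 genes shared hydrolysis of O-glycosyl compounds, where the term had 35 of 98 genes with a peak (35.7%), and 26.0% of the 20770 background genes were in the gene list of any term. Sphingolipid catabolic process had 8 of 21 genes with a peak (38.1%), and 4 of the 8 were lysosome genes, Neu1 and Smpd1 among them. In vacuolar acidification (8 of 18 genes with a peak, 44.4%) 4 of the 8 were lysosome genes, among them Atp6v0c and Tcirg1. In clathrin coat (20 of 48, 41.7%) 8 of the 20 were the clathrin chains, both GGA adaptors and 3 medium chains. Some other terms lay below 26.0%. Cysteine-type endopeptidase activity, with the 5 proteases, had 25 of 98 (25.5%). The proton-transporting V-type ATPase complex, with the 3 pump genes, had 7 of 27 (25.9%). The terms named are a choice, and nothing is read from their shares.

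The domain names in the gene table grouped the proteins in a like manner. The glycoside hydrolase superfamily was named for 20 gene IDs of the table, and 7 of them were lysosome genes, among them Fuca1, Gaa, Glb1, Gusb and Idua. Of 37 IDs with the papain-like cysteine peptidase fold, 4 were the cathepsins, and many others were genes of ubiquitin-specific protease symbols (Usp). Both IDs with a clathrin light chain domain (Clta and Cltb) and both with a GAT domain (Gga2 and Gga3) were lysosome genes. Of 4 IDs with a mannose 6-phosphate receptor binding domain, Gnptg and M6pr were lysosome genes, and Os9 and Prkcsh act in the endoplasmic reticulum.

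Many lysosome genes are controlled by TFEB and TFE3, which bind a promoter element with the core CACGTG. Of these regulators Tfe3 was on 1 line, and Tfeb, Mitf and Tfec were not listed. RefSeq promoters on GRCm38.p6, from 250 bases before to 50 after the start, were matched for 34 of the 45 genes. The core, which reads the same on both strands, was found in 10 of these 34 (29.4%, 15.1% to 47.5%). It was in 13 of 66 promoters of the other genes of the fixed list (19.7%, 10.9% to 31.3%) and in 8.91% of 17492 protein-coding genes. With a T before it, TCACGTG on either strand (which contains the core), the counts were 9 of 34, 12 of 66 and 5.00%. For the longer forms the order of the first pair was the other way. TCACGTGA, which contains both shorter forms and reads the same on both strands, was in 2 of 34 promoters of the row (5.88%, 0.72% to 19.7%), in 8 of 66 of the other list genes (12.1%, 5.38% to 22.5%) and in 1.41% of protein-coding genes. That form with a G before it and a C after it was in 0 of 34 (interval up to 10.3%), in 2 of 66 (3.03%, 0.37% to 10.5%) and in 0.469%. The core was thus present in lysosome genes inside and outside the row, and for each of the 4 forms the intervals of the row and of the other list genes overlap.

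The 30 bases around the core are shown for the 10 genes, in the direction of the gene and with the core in capitals, so that the bases beside it can be compared.
Glb1: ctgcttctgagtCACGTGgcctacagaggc
Gaa: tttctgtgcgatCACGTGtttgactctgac
Naglu: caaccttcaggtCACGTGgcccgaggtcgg
Sgsh: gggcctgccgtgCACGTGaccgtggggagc
Ctsl: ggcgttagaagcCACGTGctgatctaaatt
Lgmn: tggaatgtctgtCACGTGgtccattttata
Gnptg: ccggctgtcactCACGTGaccgtgagaccc
Gga2: ggcccgccccgtCACGTGcctctcagtgtc
Ap1s2: ccgcttccgggtCACGTGgccagacttccg
Cd164: cgccgggctgctCACGTGaccggcgcgcgc
On the plus strand, the windows are chr9:114401018-114401047 for Glb1, chr11:119267811-119267840 for Gaa, chr11:101070009-101070038 for Naglu, chrX:163908890-163908919 for Ap1s2 and chr10:41519401-41519430 for Cd164. On the minus strand they are chr11:119355522-119355551 for Sgsh, chr13:64370739-64370768 for Ctsl, chr12:102439124-102439153 for Lgmn, chr17:25240120-25240149 for Gnptg and chr7:122021182-122021211 for Gga2. In Gnptg the core begins at base 4 after the start, and in the other 9 its first base lies before the start. The start is the one used for the RefSeq promoter. For Ctsl, Lgmn, Ap1s2 and Gnptg it lies inside the RefSeq span of the gene, as do the windows shown. A T directly before or an A directly after the core was present in each window but that of Ctsl. A match is a description of letters in this window and not a bound site, and no promoter was measured here.

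Genes that overlap another gene are less certain, since the gene table gives neither position nor strand. On GRCm38.p6, 18 of the 45 genes shared at least 1 base with another RefSeq gene, and in 6 of them that other gene was itself listed. Ctsb overlaps Fdft1 (774 bases, Fdft1 on 2 lines), Gga3 overlaps Mrps7 (378 bases, 1 line), Ppt1 overlaps Cap1 (128 bases, 1 line) and Ap1s2 overlaps Zrsr2 (1073 bases, 5 lines). Ap3s1 and Ppt2, which had no line of their own, overlap the listed genes Atg12 and Prrt1. Glb1 contains Tmppe, and Dnase2a overlapped no other gene.

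Of the machinery around the lysosome, the biogenesis regulators had 9 of 18 genes listed (50.0%, 26.0% to 74.0%), beside the 25.2% of all protein-coding genes. These lists too were written with results of the data known. All 4 Rag GTPase genes, which tether the mTORC1 kinase to the lysosome, were among them, with Rragb on 3 lines, Rraga and Rragc on 2 and Rragd on 1. The calcineurin subunit gene Ppp3cb, of a phosphatase that acts on TFEB, was on 4 lines. Fusion and positioning genes had 10 of 22 (45.5%, 24.4% to 67.8%), led by Vps18, Borcs6 and Snapin on 3 lines each, with Rab7 on 1. The list named retromer and receptor recycling had 3 of 11 (27.3%, 6.02% to 61.0%), namely Snx5 on 3 lines, Snx6 on 2 and Cln8 on 1. Cln8 and the unlisted Cln6 act in the endoplasmic reticulum and are not retromer genes. The retromer core genes Vps35, Vps26a, Vps26b and Vps29 were not listed. Snx2, of the same list, was in the KEGG table only through another ID, 3222401L13Rik. Of 10 beta cell markers 8 were listed (80%, 44.4% to 97.5%), Ins1 among them and Ins2 and Iapp not, and of 10 markers of macrophages and osteoclasts, cells rich in lysosomes, only Cd68 was (10%, 0.253% to 44.5%).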

How the data were processed

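MIN6 cells with control or GR vector gave 4 libraries (input and anti-m6A IP). Reads were processed with HOMER 4.9.1 and BWA 0.7.12 on build mm10, whose roles are not stated, per the submitters' processing notes. The peak caller and thresholds are not given in the sources used here. The counts of genes per pathway or GO term, not of reads, were deposited by the authors. Per the file headers, the authors' KEGG p-values come from a hypergeometric or Fisher exact test with Benjamini-Hochberg adjustment, and the deposited GO p-values are all 1. The gene table has no header.

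Pathway IDs were matched to Entrez IDs by place within the row. Genes were looked up by symbol in a table of Ensembl IDs, and lines were counted per ID. Overflow lines of the GO table were joined. Genes of the fixed list and related lists were sorted by role from textbook knowledge. Members and lists were chosen with earlier results of these data known. Genes of the row were named, apart from a few that are not reported here and stay in the counts. Those with 3 or more lines, with more than 1 ID or in a sorting or disease pair were described singly, and genes of the fixed list outside the row by role. Coordinates and promoters are from RefSeq, GRCm38.p6. Intervals are exact Clopper-Pearson at 95%, tested on simulated data. Calculations ran in SciPy 1.17.1 and NumPy 2.4.6 under Python 3.11.15, with figures from Matplotlib 3.10.9. No test across conditions was made, since no value per library is in the files used. Alternatives were other ways of counting and matching genes, the list without tissue-restricted genes, and the GO term.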

Additional observations from a re-analysis of the deposited data

How the results depend on the processing

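The number of lysosome genes (45) was 46 with every ID counted and 46 with the solute carrier kept. Matching by deposited symbol left 42 genes in the gene table and moved no share, and the median of 1 line was the same with identical lines counted once, as it must be, and with lines summed over all IDs of a gene. The listed share of the fixed list (34.4%) was 40.8% without tissue-restricted genes and 32.6% for the GO term lysosome, both within its interval. The share of proteases, 20%, moved to 45.5% without tissue-restricted genes, which drops 14 unlisted genes from the denominator. Shares of the other roles stayed within their intervals. These settings regroup the same table, so they do not show stability. Depth is unknown. No paired analysis was possible because each group has 1 library and the results come from no test.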

Other observations

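In the GO term lysosome 136 of 417 genes had a peak (32.6%), beside 26.0% of the GO background genes in the gene list of any term. Nothing is read from this share. Among the 136 were 106 genes that the pathway row does not count among the 45. They include Grn, whose product progranulin is processed to granulins in the lysosome, the cysteine protease inhibitor gene Cst3, the lysosomal chitobiase gene Ctbs, the lysosomal membrane protein gene Tmem106b and the amino acid transporter gene Pqlc2. The granule proteins Chga and Syt7 and the autophagy genes Map1lc3b and Sqstm1 were in the same term. These names were chosen after the list was seen, and no position, fold or direction is given for them.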
